A study of Mus musculus with 27 samples.

Results

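The clustered protocadherins are cadherin-like cell-surface proteins that are encoded in a row of alpha, beta and gamma gene clusters. Each was read here from RNA of mouse frontal cortex and striatum. The members were the protein-coding mouse genes whose symbols are Pcdha, Pcdhac, Pcdhb, Pcdhga, Pcdhgb or Pcdhgc followed by a number. RefSeq holds 57 such symbols, 14 alpha, 22 beta and 21 gamma, and 25 of them were paired with an Ensembl identifier in the name table used here. Of these, 24 had a row among the 52636 gene identifiers of the count tables: all 22 beta genes (Pcdhb1 to Pcdhb22), 1 alpha row (Pcdha11, ENSMUSG00000007440) and 1 gamma row (Pcdhgc5, ENSMUSG00000023036). The other 13 alpha and 20 gamma genes had no identifier in that table and were not analysed here, nor was Pcdha3, whose identifier had no row. The results therefore describe the beta cluster in full and the alpha and gamma clusters by a single row each.

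The libraries came from adult mice of about 2.5 months on the 129S1 background. Wild-type (+/+) mice were compared with Igf2enh-/- mice, which carried a homozygous deletion of a 4.9 kb enhancer fragment between H19 and Igf2, with 1 loxP site left in its place, and the wild-type mice carried neither. The deletion was present in all cells and lies on another chromosome than the protocadherin clusters. Frontal cortex gave 6 wild-type and 6 Igf2enh-/- libraries, each with 3 females and 3 males. Striatum gave 7 wild-type libraries, from 3 females and 4 males, and 8 Igf2enh-/- libraries, from 4 females and 4 males. The series description gives the totals of the 2 genotypes the other way round, and the groups here follow each library's own label. The labels do not say which libraries of the 2 regions came from the same mouse.

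In neurons, each cell uses its own small set of clustered protocadherins. A variable exon with its own promoter encodes the extracellular part, and in the alpha and gamma clusters it is spliced to constant exons that all genes of the cluster share. Beta genes have no constant exons and are mostly read from a single exon. The proteins bind like with like across cell contacts, and they are known for self-recognition between branches of 1 neuron and for the spacing of neurites. For most of these genes, promoter use depends on CTCF and cohesin, which loop a promoter to a distant enhancer. It also depends on DNA methylation, which keeps other promoters silent.

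The 22 beta genes lie on the plus strand of chromosome 18, between positions 37424652 and 37681073 of build NCBIM37, which is not the build used for the counts. In GENCODE vM1 on that build, Pcdhb20 was typed as a pseudogene with 2 exon blocks, while RefSeq held it as protein-coding. Of the 22 genes, 20 had a single exon block in vM1, and the exonic lengths ran from 2350 to 7131 bases. Of all stretches of 75 bases in their exons, the read length used, between 95.9% (Pcdhb12) and 100% (Pcdhb1 and Pcdhb13) occurred once in that genome. The exons of Pcdhb19 and Pcdhb20 were 144 bases apart and those of Pcdhb21 and Pcdhb22 39 bases apart, so reads that run past the end of one could fall in the next. The vM1 gene called Pcdha11 spanned 10 transcripts from position 37089939 to 37347311 and the one called Pcdhgc5 spanned 10 transcripts from 37833989 to 38001527. The counts rested on the later release vM15, and which transcripts these 2 rows held there is not known here. Reads in constant exons that several genes share may be missing from any of the alpha and gamma rows.

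Levels are given as CPM, the count of a gene per 1000000 counts of its library, scaled by the trimmed mean of M-values (TMM) so that libraries can be compared. Library totals ran from 23686945 to 33926904 counts, so that 1 CPM stood for between 23.7 and 33.9 counts. Across libraries the beta genes other than Pcdhb1 held between 52 counts (Pcdhb21) and 890 counts (Pcdhb17). Defining markers fitted the region labels. Markers of medium spiny neurons, the projection neurons of striatum, summed to between 177 and 258 CPM over 9 genes in frontal cortex and to between 3788 and 10474 CPM in striatum. Markers of cortical projection neurons summed to between 2219 and 2429 CPM over 8 genes in frontal cortex and to between 34.3 and 1157 CPM in striatum, so the striatal libraries held varying amounts of them.

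Libraries are named by the number in their labels, and 2 of the striatal ones stood apart. Library 20, from a wild-type male, was highest for 8 of 8 cortical projection markers and for 6 of 6 oligodendrocyte markers and lowest for 9 of 9 medium spiny neuron markers. Library 15, from an Igf2enh-/- female, was highest for 11 of 11 choroid plexus markers, which summed to 4629 CPM there against a median of 219 CPM over the 15 striatal libraries. Some of the results are also given without library 20 or without both.

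Beta genes differed widely in level. Compared per kilobase of vM1 exon, Pcdhb22 was highest in frontal cortex, at 6.29 ± 0.53 CPM per kb (SD, n = 12), and was followed by Pcdhb17 at 5.64 ± 0.24 and Pcdhb20 at 4.81 ± 0.26. In striatum Pcdhb17 and Pcdhb20, at 7.42 ± 1.02 and 7.31 ± 0.81 CPM per kb (SD, n = 15), differed by less than their spread, and Pcdhb22 came after them at 6.48 ± 0.57. Pcdhb1 was the lowest in both regions, at 0.0397 ± 0.0310 and 0.169 ± 0.082 CPM per kb. Pcdhb21 was next by the vM1 length, at 0.540 ± 0.075 CPM per kb in frontal cortex and 0.675 ± 0.107 in striatum. By the shorter RefSeq gene span, 2712 against 4662 bases, it was at 0.928 and 1.16 CPM per kb, and Pcdhb16 (0.923) was then lower in frontal cortex and Pcdhb4 (1.07) in striatum. Pcdhb19 also differed in length between these models, at 7131 and 4714 bases, and by RefSeq span Pcdhb20 came before Pcdhb17 in striatum. The first and the last gene of the row were thus at opposite ends of the order in frontal cortex.

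**Figure D1:**
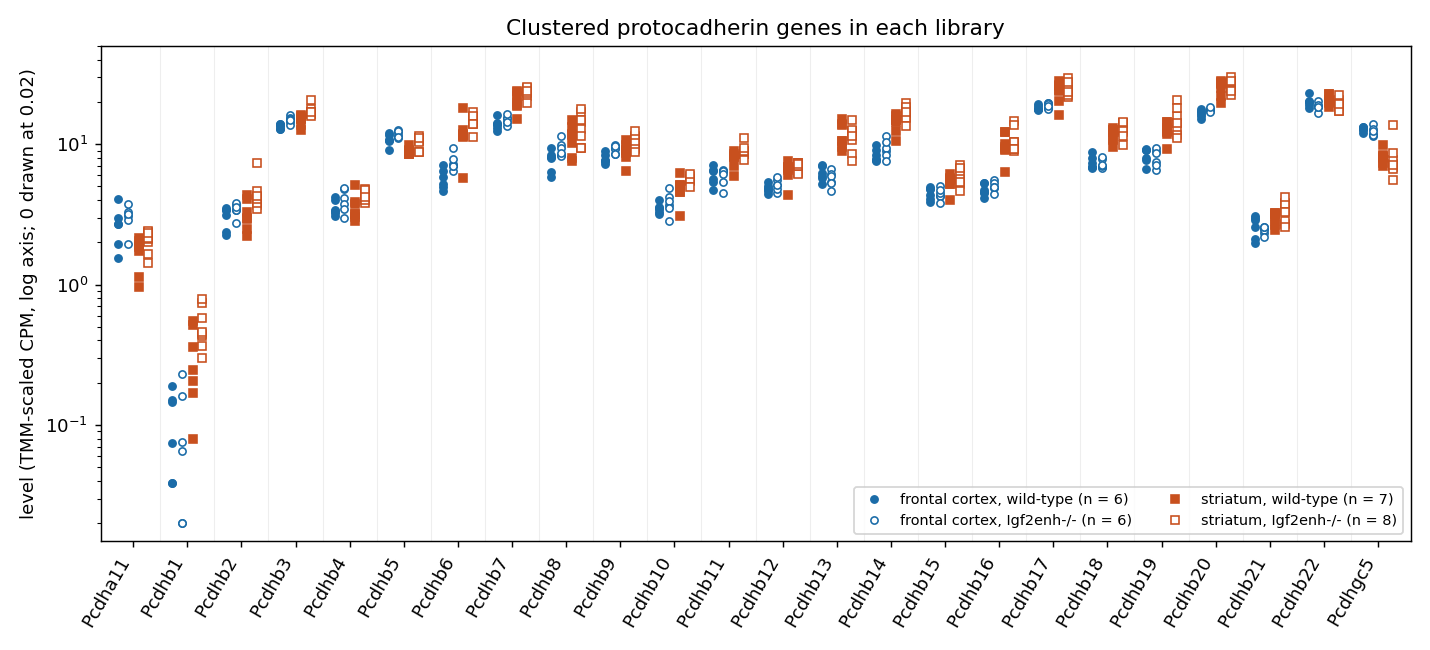
Level of each clustered protocadherin gene in each of the 27 libraries, in TMM-scaled CPM on a log axis, with genes in chromosome order and symbols by region and genotype. Pcdhb1 lies below 1 CPM in every library, Pcdhb16 is above 6 CPM in all striatal and below 6 CPM in all cortical libraries, and Pcdhgc5 lies mostly lower in striatum.

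The first comparison asked how the clusters differ between the 2 regions. Most beta genes were higher in striatum, while the single alpha and gamma rows were lower. Of the 21 beta genes that reached 1 CPM in every library, 17 were higher in striatum, 1 was lower and 3 did not pass the test (edgeR's quasi-likelihood test with region, genotype and sex, Benjamini-Hochberg adjusted p under 0.05). Of all 13414 genes tested, 39.4% were called higher in striatum and 38.3% lower. The median log2 fold change of the 21 beta genes was 0.50, beside 0.01 over all genes tested. In bulk tissue, fewer cells that use a gene and less of its RNA per cell cannot be told apart. Medium spiny neuron and oligodendrocyte markers were higher in striatum in 8 of 8 and 6 of 6 genes tested, and their part in the beta differences was not tested.

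Pcdhb16 (ENSMUSG00000047910) and Pcdhb20 (ENSMUSG00000046191) gave the smallest p among beta genes. Pcdhb16 ran from 4.13 to 5.54 CPM in frontal cortex, with a median of 4.90, and from 6.28 to 14.6 CPM in striatum, with a median of 9.98. All 15 striatal libraries were above all 12 cortical ones, and the lowest of them was library 20. Striatum over frontal cortex gave a log2 fold change of 1.08 (SE 0.09, adjusted p = 3.5e-11). Pcdhb20, the gene of highest mean CPM, ran from 15.0 to 18.5 CPM in frontal cortex (median 17.2) and from 19.6 to 30.2 CPM in striatum (median 26.8). The groups again did not overlap, at a log2 fold change of 0.60 (SE 0.05, adjusted p = 2.5e-11).

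Pcdhb6 (ENSMUSG00000051678) and Pcdhb13 also about doubled. Pcdhb6 ran from 4.61 to 9.36 CPM in frontal cortex, with a median of 6.73, and from 5.73 to 18.0 CPM in striatum, with a median of 13.9. Library 20 alone lay within the cortical range. The log2 fold change was 1.00 (SE 0.10, adjusted p = 4.4e-10), and 1.05 without library 20. Pcdhb13, chosen after its values were seen, ran from 4.65 to 7.07 CPM in frontal cortex and from 7.64 to 15.1 CPM in striatum, with no overlap and a log2 fold change of 0.96 (SE 0.09, adjusted p = 5.6e-10). Pcdhb14, Pcdhb19 and Pcdhb18, also named after their values were seen, followed with log2 fold changes of 0.80 (SE 0.07), 0.74 (SE 0.09) and 0.73 (SE 0.06). The other 10 beta genes called higher lay between 0.17 (Pcdhb9 and Pcdhb3) and 0.60 (Pcdhb7).

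Pcdhb5 (ENSMUSG00000063687) was the only beta gene called lower in striatum. It ran from 9.13 to 12.6 CPM in frontal cortex, with a median of 11.4, and from 8.47 to 11.5 CPM in striatum, with a median of 9.13. In striatum 8 of 15 libraries lay below every cortical library and none lay above them all. This gave a log2 fold change of -0.23 (SE 0.04, adjusted p = 3.5e-05). Its neighbour on the 3′ side, Pcdhb6, was among the most raised genes.

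Pcdhb2, Pcdhb4 and Pcdhb22 did not pass the test. Pcdhb2 had a log2 fold change of 0.24 (SE 0.12, adjusted p = 0.073). Pcdhb4 (ENSMUSG00000045689) ran from 3.00 to 4.86 CPM in frontal cortex and from 2.86 to 5.11 CPM in striatum, at a log2 fold change of 0.07 (SE 0.08, adjusted p = 0.41). Pcdhb22, the last gene of the row, ran from 16.5 to 23.1 CPM in frontal cortex and from 17.1 to 22.9 CPM in striatum, at 0.05 (SE 0.04, adjusted p = 0.34).

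**Figure D2:**
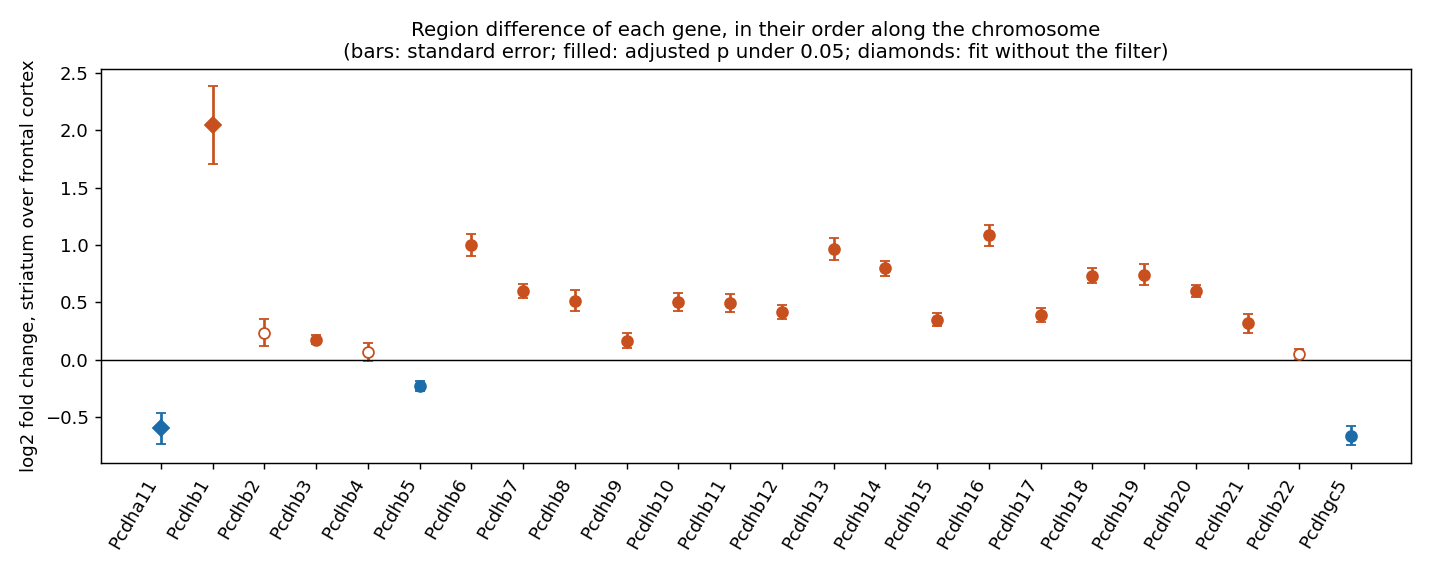
Log2 fold change of striatum over frontal cortex for each gene, in chromosome order, with standard errors as bars; filled symbols have an adjusted p under 0.05, and diamonds mark the 2 genes fitted without the filter on low values. Pcdhb6, Pcdhb13 and Pcdhb16 stand near 1, Pcdhb5 lies below 0 between higher neighbours, and the rows Pcdha11 and Pcdhgc5 lie near -0.6.

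Few of the differences were free of overlap between libraries. For 4 of the 21 beta genes, Pcdhb13, Pcdhb16, Pcdhb18 and Pcdhb20, every striatal library was above every cortical one, against 12.5% of all genes tested. Without library 20 this held for 10 of 21, against 15.7% of all genes. Library 20 was the lowest striatal library for 14 of the 22 beta genes. No beta gene was below all cortical libraries throughout striatum, against 13.5% of all genes.

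The gamma row went the other way. Pcdhgc5 (ENSMUSG00000023036), named for a C-type gamma gene, ran from 11.5 to 13.8 CPM in frontal cortex, with a median of 12.7, and from 5.53 to 13.6 CPM in striatum, with a median of 7.65. In striatum 14 of 15 libraries were below every cortical library, and library 19, from an Igf2enh-/- male, was the exception. The log2 fold change was -0.66 (SE 0.08, adjusted p = 3.7e-08), and between -0.72 and -0.63 when each library was left out in turn. Cortical projection markers were lower in striatum in 5 of 5 genes tested and meningeal fibroblast markers in 7 of 7. Their part in the fall of Pcdhgc5 was not tested. In library 19 the cortical projection markers summed to 539 CPM, against a striatal median of 298 CPM. In libraries 20 and 23 they summed to 1157 and 853 CPM, with Pcdhgc5 at 8.26 and 8.65 CPM. The part of these markers in the Pcdhgc5 level of library 19 was not tested.

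The alpha row and Pcdhb1 were under the filter and were fitted with all genes that had counts. Pcdha11 ran from 1.54 to 4.08 CPM in frontal cortex (median 2.93) and from 0.961 to 2.40 CPM in striatum (median 2.02). The regions overlapped, with 3 of 15 striatal libraries below every cortical one, and the log2 fold change was -0.60 (SE 0.13, adjusted p = 0.00032). Pcdhb1 (ENSMUSG00000051663), the first gene of the beta row, had between 0 and 24 counts. It ran from 0 to 0.231 CPM in frontal cortex, where 2 libraries had no count, and from 0.0790 to 0.796 CPM in striatum, with 12 of 15 striatal libraries above every cortical one. Its log2 fold change was 2.05 (SE 0.34, adjusted p = 5.0e-06). In this fit without the filter 21.7% of 36013 genes were called higher and 20.1% lower.

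The beta cluster as a whole rose with its members. The sum of the 22 beta genes ran from 171 to 195 CPM in frontal cortex, with a mean of 182 ± 8 (SD, n = 12), and from 183 to 303 CPM in striatum, with a mean of 254 ± 28 (SD, n = 15). All striatal libraries but library 20, at 183 CPM, were at 221 CPM or above. The ratio of the means was 1.39, and 1.42 without libraries 15 and 20. The fold changes of the members were unequal, so their shares of the sum differed between regions. Pcdhb22, whose own level differed little, took 10.6 ± 0.9% of it in frontal cortex and 7.92 ± 1.04% in striatum, and Pcdhb5 took 6.22 ± 0.49% and 3.83 ± 0.39%. In turn Pcdhb16 went from 2.67 ± 0.21% to 4.06 ± 0.55%.

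**Figure D3:**
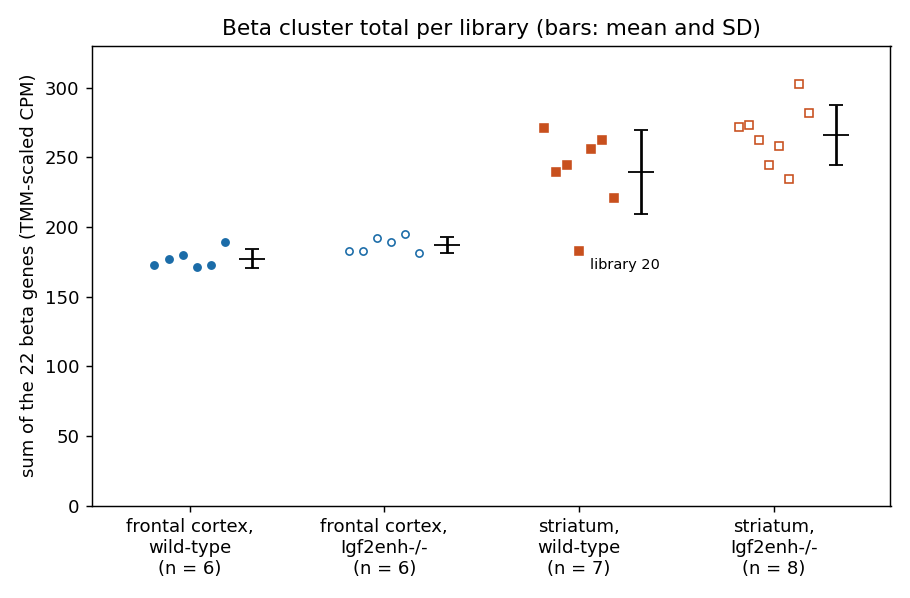
Sum of the 22 beta genes in each library, in TMM-scaled CPM from 0, by region and genotype, with the mean and SD of each group beside the points. The 12 cortical libraries lie between 171 and 195 CPM, and the striatal libraries lie at 221 CPM or above except library 20 at 183 CPM.

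The size of the regional difference was set beside properties of the genes. Over the 21 beta genes tested, Spearman's rho of the log2 fold change was 0.26 with the order along the chromosome, 0.15 with the mean level, 0.28 with exonic length, -0.06 with the share of unique 75-base stretches and -0.48 with the GC content of the exons. These are descriptions of genes read from the same libraries. The 8 genes from Pcdhb2 to Pcdhb9 had a median log2 fold change of 0.21, with a range of -0.23 to 1.00. The 13 from Pcdhb10 to Pcdhb22 had a median of 0.50, with a range of 0.05 to 1.08. This split was chosen after the values were seen, and the 2 ranges largely overlapped.

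Both genotypes showed the regional pattern on their own. With wild-type libraries alone, 15 of 21 beta genes were called higher in striatum and 1 lower, against 33.8% and 31.6% of 13554 genes. With Igf2enh-/- libraries alone, 17 of 21 were called higher and 1 lower, against 34% and 34.1% of 13595 genes. Pcdhb9 was not called in either genotype alone (adjusted p = 0.16 and 0.067) and Pcdhb21 not in wild-type alone (adjusted p = 0.13). Region by genotype was called for 0 of 22 members and for 0% of all genes by the same test, and no member had an unadjusted p under 0.05, against 1.22% of genes with a positive and 1.8% with a negative interaction.

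The second comparison asked whether loss of the Igf2 enhancer changed the clusters in either region. No member was called by edgeR's quasi-likelihood test: 0 of 23 tested in frontal cortex, where 0.38% of 13936 genes were called, and 0 of 22 in striatum, where 0.036% of 13875 were. The study itself used edgeR's likelihood ratio test. Here that test called 232 genes in frontal cortex, with Pcdhb6 among them, and 56 in striatum, with no member. The values of most beta genes nonetheless leaned upward in Igf2enh-/- mice. In frontal cortex 14 of 21 beta genes had a positive log2 fold change, beside 50.4% of all genes, and in striatum 19 of 21 did, beside 50.2%. The medians were 0.09 and 0.19, beside 0.00 over all genes in each region.

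At an unadjusted p under 0.05, 5 of 21 beta genes were higher in frontal cortex, against 6.87% of all genes, and 9 of 21 in striatum, against 4.94%. None was lower at that level, against 6.6% and 5.11% of all genes. Without library 20 the count in striatum was 6 of 21, without libraries 15 and 20 it was 5, and over each library left out in turn it ran from 5 (without wild-type library 16) to 10. In frontal cortex it ran from 3 (without Igf2enh-/- library 3) to 6. The genes share libraries, and none of these values passed the adjustment.

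All 8 genes from Pcdhb2 to Pcdhb9, a stretch chosen after its values were seen, had positive log2 fold changes, between 0.10 and 0.40 in frontal cortex and between 0.19 and 0.47 in striatum. Of these 8, 5 had an unadjusted p under 0.05 in frontal cortex (Pcdhb3, Pcdhb5, Pcdhb6, Pcdhb8 and Pcdhb9) and 8 did in striatum. Of the 13 genes from Pcdhb10 to Pcdhb22, 6 had a positive log2 fold change in frontal cortex and 11 in striatum. None of these 13 had an unadjusted p under 0.05 in frontal cortex and 1, Pcdhb14, did in striatum. Their medians were -0.01 and 0.13, against 0.18 and 0.23 for the 8 genes. Without libraries 15 and 20, 4 of the 8 genes had an unadjusted p under 0.05 in striatum. Their median was then 0.19, and that of the 13 genes was 0.09.

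Pcdhb6 had the smallest p in frontal cortex. It ran from 4.61 to 7.06 CPM in the 6 wild-type libraries, with a median of 5.49, and from 6.47 to 9.36 CPM in the 6 Igf2enh-/- libraries, with a median of 7.12. The groups overlapped between 6.47 and 7.06 CPM. The log2 fold change was 0.40 (SE 0.11, adjusted p = 0.14 by the quasi-likelihood test). The likelihood ratio test, which the study used, and DESeq2 called it, with adjusted p of 0.039 and 0.045. The quasi-likelihood test without the filter on low values also did (0.012). These settings called more genes in all, at 232, 247 and 459, against 53 by the quasi-likelihood test with the filter. Pcdhb6 was not called when any single library was left out of the quasi-likelihood fit, with adjusted p between 0.070 and 0.27. In striatum Pcdhb6 had a log2 fold change of 0.30 (SE 0.14, adjusted p = 0.49), and of 0.18 without libraries 15 and 20.

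Pcdhb9 (ENSMUSG00000051242) and Pcdhb3 (ENSMUSG00000045498) came next in frontal cortex. Pcdhb9 ran from 7.24 to 8.93 CPM in wild-type and from 8.46 to 9.92 CPM in Igf2enh-/- libraries, at 0.22 (SE 0.07, adjusted p = 0.18). Pcdhb3 ran from 12.8 to 14.0 CPM and from 13.6 to 16.2 CPM, at 0.15 (SE 0.05, adjusted p = 0.20). Both gave partly overlapping groups, with the Igf2enh-/- libraries reaching higher.

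Pcdhb3 had the smallest p in striatum. It ran from 12.6 to 16.0 CPM in the 7 wild-type libraries (median 15.1) and from 15.9 to 20.5 CPM in the 8 Igf2enh-/- libraries (median 16.7). The groups overlapped only between 15.9 and 16.0 CPM. The log2 fold change was 0.20 (SE 0.06, adjusted p = 0.28). Pcdhb5 ran from 8.47 to 9.90 CPM and from 8.73 to 11.5 CPM, at 0.21 (SE 0.07, adjusted p = 0.32). Pcdhb4 ran from 2.86 to 5.11 CPM and from 3.83 to 4.81 CPM, at 0.28 (SE 0.10, adjusted p = 0.39).

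The sum of the beta genes showed the same lean. In frontal cortex it ran from 171 to 189 CPM in wild-type and from 181 to 195 CPM in Igf2enh-/- libraries, with means of 177 ± 7 and 187 ± 6 (SD, n = 6 each). In striatum it ran from 183 to 271 CPM in wild-type, with a mean of 239 ± 30 (SD, n = 7), and from 234 to 303 CPM in Igf2enh-/- libraries, with a mean of 266 ± 21 (SD, n = 8). The groups overlapped in both regions, and the wild-type mean in striatum was 249 ± 18 without library 20. The gamma row Pcdhgc5 had log2 fold changes of -0.06 (SE 0.06, adjusted p = 0.71) in frontal cortex and -0.03 (SE 0.13, adjusted p = 0.96) in striatum, and Pcdha11 had 0.19 (SE 0.20, adjusted p = 0.73) in frontal cortex. Medium spiny neuron, cortical projection neuron and oligodendrocyte markers gave no call between genotypes in either region, and their part in the lean was not tested. Over all genes, 0.38% were called in frontal cortex and 0.036% in striatum. In frontal cortex the median log2 fold change was -0.07 over 8 medium spiny, -0.02 over 8 cortical projection and -0.18 over 6 oligodendrocyte markers, and 0.27 over 9 meningeal fibroblast markers, of which none was called. In striatum it was 0.05 over 9 medium spiny, -0.36 over 5 cortical projection and -0.32 over 6 oligodendrocyte markers. It was 0.15 over 7 meningeal fibroblast markers and 0.89 over 4 choroid plexus markers, for which Igf2enh-/- library 15 was highest. None of these was called, and their part was not tested either.

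**Figure D4:**
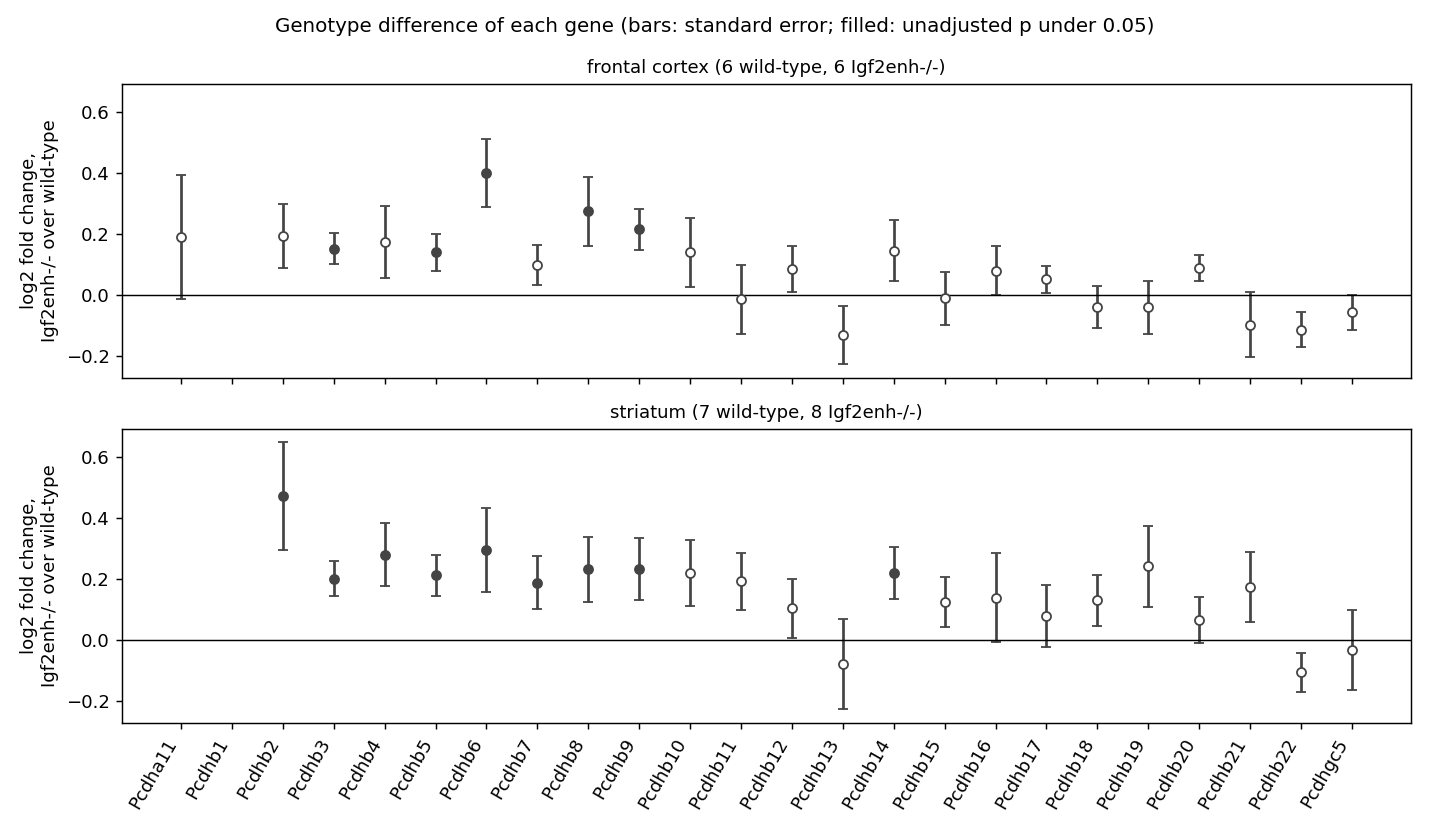
Log2 fold change of Igf2enh-/- over wild-type for each gene in frontal cortex and in striatum, in chromosome order, with standard errors as bars and filled symbols for an unadjusted p under 0.05. All genes from Pcdhb2 to Pcdhb9 lie above 0 in both panels, and no gene passed the adjusted threshold by the quasi-likelihood test.

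Sex was called for no member in either region, where 0.0431% of genes in frontal cortex and 0.0432% in striatum were called. At an unadjusted p under 0.05, 3 members were higher and 0 lower in males in frontal cortex, against 3.67% and 3.89% of all genes. In striatum 1 was higher and 5 were lower, against 4.86% and 5.92%. The smallest p was that of Pcdhb8 (ENSMUSG00000045876) in striatum, named after its values were seen. It ran from 11.7 to 17.8 CPM in the 7 female libraries, with a median of 14.9, and from 7.61 to 12.9 CPM in the 8 male libraries, with a median of 9.80. The log2 fold change of males over females was -0.54 (SE 0.11, adjusted p = 0.21 by the quasi-likelihood test), and the likelihood ratio test called it at an adjusted p of 0.0040. That test called 12 genes in all, against 6 by the quasi-likelihood test. In frontal cortex the median of Pcdhb8 was 8.80 CPM in 6 female and 8.38 CPM in 6 male libraries.

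Other genes of the pathway were followed by list. Over all 13414 genes tested, 39.4% were called higher in striatum and 38.3% lower. Genes for promoter choice and chromatin loops mostly rose in striatum: of 13 tested 10 were called higher, 0 lower and 3 not, with a median log2 fold change of 0.23. Stag2 and Stag1, alternative cohesin subunits, had log2 fold changes of 0.42 (SE 0.03) and 0.47 (SE 0.04), and Nipbl, which loads cohesin, had 0.35 (SE 0.04). Wapl, which releases cohesin, had 0.26 (SE 0.03), and Smc3, a core subunit, had 0.23 (SE 0.03). Ctcf, the factor bound at most of the promoters and at enhancers and named here for that role, was also called, at 0.13 (SE 0.02).

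Of 8 genes tested that silence variable promoters, 6 were called higher, 1 lower and 1 not, with a median of 0.18. The shares over all genes were 39.4% and 38.3%. Dnmt3a, a methyltransferase that sets new DNA methylation, had a log2 fold change of 0.58 (SE 0.04), and Dnmt1, which copies methylation at replication, had -0.27 (SE 0.04). Setdb1, a histone H3 methyltransferase, had 0.18 (SE 0.03), and Smchd1, a silencing protein of the condensin and cohesin family, had 0.21 (SE 0.04).

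The relatives outside the clusters differed in the other direction. Of 11 non-clustered protocadherins tested, 2 were called higher in striatum, 8 lower and 1 not, with a median of -0.48. Among all genes, 39.4% were called higher and 38.3% lower. Pcdh1, Pcdh7 and Pcdh19 were lower, at -0.79 (SE 0.05), -0.90 (SE 0.07) and -1.06 (SE 0.11). Pcdh18 was lower too, at -0.48 (SE 0.06), while Pcdh17 was higher at 1.00 (SE 0.11). The list of other cadherins and catenins split, with 6 higher, 10 lower and 1 not called of 17, and a median of -0.23. Cdh9 rose by 1.32 (SE 0.08) and Cdh13 by 1.28 (SE 0.09), the alpha-catenin gene Ctnna1 rose by 0.74 (SE 0.05), and Ctnnd2 and Cdh10 had -0.41 (SE 0.02) and -0.62 (SE 0.04).

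Of 25 intracellular partners and processing genes, 7 were called higher, 11 lower and 7 not, with a median of -0.04. The kinase genes Pak1, Prkca and Ptk2 (focal adhesion kinase) had log2 fold changes of -1.41 (SE 0.11), -0.77 (SE 0.05) and -0.54 (SE 0.04). Nlgn2, a postsynaptic adhesion gene, and Cyfip2, of the WAVE actin-regulating complex, had -0.31 (SE 0.02) and -0.30 (SE 0.03). Of 14 genes tested that lie beside the clusters, 5 were higher, 5 lower and 4 not called, with a median of 0.02. For both lists the shares over all genes were 39.4% higher and 38.3% lower. Hars, a tRNA ligase gene, had -0.31 (SE 0.02), Zmat2 -0.37 (SE 0.02), Rell2 -0.58 (SE 0.07), the histone deacetylase gene Hdac3 -0.16 (SE 0.02) and Fchsd1 -0.43 (SE 0.08). Between genotypes, 0 genes of these 6 lists were called in either region, against 0.38% of all genes in frontal cortex and 0.036% in striatum.

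**Figure D5:**
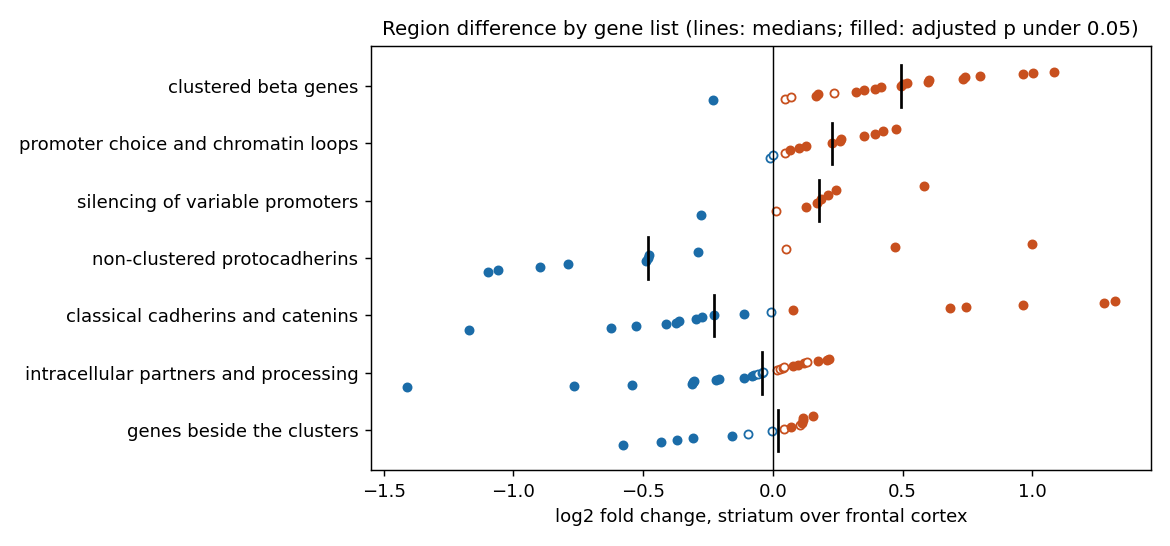
Log2 fold change of striatum over frontal cortex for the beta genes tested and for each gene of the 6 pathway lists, with lines at the medians and filled points for an adjusted p under 0.05. The median was 0.50 for the beta genes, 0.23 for promoter choice and chromatin loops and -0.48 for the non-clustered protocadherins.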

How the data were processed

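Total RNA of frontal cortex and striatum was depleted of ribosomal RNA (KAPA RNA HyperPrep with RiboErase) and sequenced as 75-base single reads in 27 libraries. Per the labels, adapters were trimmed in Trim Galore 0.5.0 and reads aligned in STAR to GRCm38 with GENCODE vM15. The authors deposited raw read counts per gene identifier; the counting tool and strand setting are not given in the sources used here. Without them, reads of overlapping antisense genes cannot be told apart, and shared exons may have gone uncounted.

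Symbols came from GENCODE vM1 and RefSeq. Positions, lengths and uniqueness were read on NCBIM37. No sequence is printed.

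Counts were tested with edgeR 4.0.16 (R 4.3.3; TMM scaling, quasi-likelihood test, sex as a covariate) over genes at or above 1 CPM in all libraries compared, adjusted over all genes tested (Benjamini-Hochberg, threshold 0.05). SE is the fold change divided by the square root of F. The region fit took frontal cortex and striatum together as independent libraries. DESeq2 1.42.0, limma 3.58.1 (voom), the likelihood ratio test that the study used, other scalings and filters, and leaving out each library were alternatives. The steps were tested on simulated data. The labels do not say that libraries were separate extractions beyond being separate samples, so p-values measure the spread between these libraries. SEs of the beta genes cover both counting error and that spread, over 27 libraries between regions and over 12 or 15 between genotypes.

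The C-type genes, the highest and lowest beta gene by mean CPM, the 2 beta genes of smallest p between regions, the 3 of smallest p for genotype in each region and up to 5 genes per list of smallest p were named by rule. Pcdhb2, Pcdhb7, Pcdhb17, Pcdhb21, Pcdhb22, Ctcf and genes so marked in the text fall outside the rule and were named after their values were seen. The values of 1 list gene that the rule names are not reported here. Members and lists were chosen with earlier results of these data known.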

Additional observations from a re-analysis of the deposited data

Results flagged for a closer look

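Of 100 tests of a group of libraries (24 genes and the beta sum in 4 groups), 3 had a library that stood apart by Dixon's ratio of gap to range, where chance alone flags about 1 in 20. All 3 lay in the Igf2enh-/- striatal group. Library 25, from a female, was highest for Pcdhb2, at 7.40 CPM against 3.44 to 4.66 CPM in the other libraries (ratio 0.691), and for Pcdhb3, at 20.5 CPM against 15.9 to 17.7 CPM (ratio 0.607). It also had the highest beta sum, 303 CPM, and its medium spiny neuron markers summed to 9075 CPM, within the range of the other striatal libraries. Library 19, from a male, was highest for Pcdhgc5, at 13.6 CPM against 5.53 to 8.65 CPM (ratio 0.615), with medium spiny neuron markers at 5394 CPM against a striatal median of 8521 CPM. Library 20 had fewer of these markers, 3788 CPM, with Pcdhgc5 at 8.26 CPM, and their part was not tested. No difference between genotype effects in the 2 regions was called.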

How the results depend on the processing

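No paired analysis was possible because the library numbers are unique and no label ties libraries of the 2 regions to a mouse. The number of members called between regions was 19 of 22, beside 10419 of all 13414 genes in the same fit. It ran from 17 to 21 over 11 other settings and from 19 to 21 when each library was left out. For genotype in frontal cortex the count was 0 and stayed at 0 over libraries left out. It became 1 (Pcdhb6) with no filter on low values, with the likelihood ratio test and with DESeq2. These settings called 459, 232 and 247 genes in all, against 53. For genotype in striatum and for region by genotype the count was 0 under all 9 alternatives each and with each library left out. For sex in striatum the count was 0, became 1 (Pcdhb8) with the likelihood ratio test, and ran from 0 to 1 over libraries left out; it was 1 without wild-type library 22, at a log2 fold change of -0.60 and an adjusted p of 0.044. For sex in frontal cortex it stayed at 0. The ratio of beta sums, 1.39, ran from 1.37 to 1.42 over libraries left out and was 1.41 under scaling by total count. Pcdha11 and Pcdhb1 were both called between regions under the 3 other settings of the fit without the filter. The regional call of Pcdhb2 appeared under total count scaling (adjusted p = 0.045), in Igf2enh-/- libraries alone (0.048) and without wild-type library 18 or 24 (0.034 and 0.043). The causes were not tested, and no direction reversed. Depth limits Pcdhb1, with at most 24 counts. The settings without libraries 15 and 20 and the other settings of the fit without the filter were chosen after the data were seen.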
